A study of Mus musculus with 3 samples.

Results

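Granzymes and the genes that pack, deliver and restrain them were followed across activated CD4 T cells in 3 culture media. The set holds 9 genes, chosen by gene symbol from 23282 deposited rows: the granzymes Gzma, Gzmb, Gzmc and Gzmk, the pore-forming gene Prf1, the granule genes Nkg7 and Ctsw, the death ligand Fasl and the granzyme B inhibitor Serpinb9. Cytotoxic lymphocytes kill by releasing granules in which perforin opens the membrane of the target cell and granzymes, a family of serine proteases, enter and start cell death. Fas ligand on the cell surface triggers a separate route through the receptor Fas, and the serpin Serpinb9 protects the killer cell from its own granzyme B. This machinery is best known in CD8 T cells and natural killer (NK) cells, but activated CD4 T cells can also express granzymes.

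The CD4 T cells came from the spleen and lymph node of C57BL/6 mice, females of 6 to 8 weeks with no engineered allele. Cells were sorted as CD4 T cells before culture and stimulated with anti-CD3 and anti-CD28 antibody, each at 2 µg/mL, and cultured for 72 h. Complete medium (CM) was RPMI with 10% serum. The dialyzed medium (DM) was RPMI lacking amino acids with 10% dialyzed serum, and DM+Met was DM with 30 µM methionine added. Both thus had less of other amino acids and small serum molecules than CM. The study reports that its DM still contained some methionine, so DM+Met was a rise above that level. The comparisons ask what the loss of nutrients did to these genes (DM against CM), what added methionine alone restored (DM+Met against DM), and how far DM+Met stayed from CM.

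Each medium was 1 sample in the labels with 2 numbered files, taken as 2 libraries of a 3′-end sequencing kit, 6 in all, and n = 2 throughout. The study calls its replicates biologically independent, but no label tells whether files of 1 sample hold separate cultures, so p-values measure the spread between these libraries. Depth was 8504742 to 12377285 reads. The ribosomal RNA precursor Rn45s took 31.0% to 38.3% of reads in CM and DM and 15.5% and 20.1% in DM+Met. Levels are given as log2(CPM + 1), where CPM is the read count of a gene relative to a library size scaled by the TMM method, or as CPM where stated. A gene was called changed when the p-value of a linear model over 12770 tested genes (limma), adjusted by the Benjamini-Hochberg method, was below 0.05. Of the 9 genes, 7 passed the filter on low values (Gzmk and Prf1 did not). In bulk RNA, fewer cells expressing a gene and less RNA per cell cannot be told apart.

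Gzma and Gzmb were the most abundant members in CM and the most reduced in DM. Granzyme A is a tryptase that kills without relying on caspases, and granzyme B cleaves after aspartate and activates caspases in the target. Gzma stood at log2 8.78 and 8.63 in the CM libraries, 2.48 and 2.00 for DM and 2.78 and 3.18 for DM+Met. Gzmb stood at 9.58 and 9.16 for CM, 4.27 and 5.31 for DM and 4.38 and 4.53 for DM+Met. For both genes the CM libraries lay far above the other 4. Those ran from 2.00 to 3.18 for Gzma and from 4.27 to 5.31 for Gzmb. In CPM the means were 416 in CM against 3.80 in DM for Gzma, a 109.5-fold difference, and 668 against 28.5 for Gzmb, a 23.5-fold difference. Among all genes read in a library, ordered by CPM with 1 as the highest, Gzmb ranked 116 and 169 for CM, 5901 and 3615 for DM and 5651 and 5296 for DM+Met. Gzma ranked 236 and 266 in CM and between 8114 and 10251 in the other libraries.

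Gzma lies on chromosome 13 (GRCm38, chr13:113093825-113100981, minus strand) and Gzmb on chromosome 14 (chr14:56258838-56262260, minus strand), both annotated as protein-coding genes. Gzmb is the outermost of 7 granzyme genes on that stretch of chromosome 14, all on the minus strand, and its nearest neighbour among the 9 genes is Gzmc (chr14:56231441-56234656), 24.181 kb away with no coding gene between them. Gzmk (chr13:113171608-113225908, minus strand) lies 70.626 kb from Gzma, also with no coding gene between. Gzmc was low in all media, as described below, and Gzmk was listed at 0 in all 6 libraries.

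The promoters of 3 granzymes are shown because Gzma and Gzmb fell together while Gzmc, next to Gzmb, was not called. Sequences are the last 150 bases before the RefSeq start on GRCm38.p6, written 5′ to 3′ on the strand of the gene, and capitals mark letters that match a searched motif. The Gzma stretch is chr13:113100982-113101131, the Gzmb stretch chr14:56262335-56262484 and the Gzmc stretch chr14:56234658-56234807, all from the minus strand. A longer RefSeq record of Gzmc starts further out, so the Gzmc stretch lies inside that record.
Gzma: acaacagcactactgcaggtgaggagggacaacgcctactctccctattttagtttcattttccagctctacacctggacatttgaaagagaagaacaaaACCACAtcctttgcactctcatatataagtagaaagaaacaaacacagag
Gzmb: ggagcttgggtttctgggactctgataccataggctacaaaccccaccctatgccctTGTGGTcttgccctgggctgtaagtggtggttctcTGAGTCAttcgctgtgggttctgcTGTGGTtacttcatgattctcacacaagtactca
Gzmc: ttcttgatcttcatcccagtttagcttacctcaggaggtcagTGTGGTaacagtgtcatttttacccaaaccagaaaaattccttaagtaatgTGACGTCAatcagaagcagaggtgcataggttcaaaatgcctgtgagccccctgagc
Runx factors are known regulators of cytotoxic genes, and the letters TGTGGT, or their complement ACCACA, mark the Runx matches. The Gzmb stretch also holds TGAGTCA, a match to the AP-1 motif TGANTCA, and the Gzmc stretch holds TGACGTCA, the cyclic AMP response element (CRE).

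Within 250 bases before the start, 8 of the 9 genes had a RefSeq promoter entry (not Ctsw), and 5 held the Runx letters on either strand: Gzma, Gzmb, Gzmc, Nkg7 and Prf1. The share over all 32851 promoters was 14.0%. Gzmb held them at 93 to 88 and 34 to 29 bases before the start, Gzmc at 174 to 169 (outside the stretch shown) and 108 to 103, and Gzma at 50 to 45 on the opposite strand. These members differed in what they did, since Gzma, Gzmb and Nkg7 fell in DM, Gzmc was not called and Prf1 had almost no reads. The AP-1 letters were in Gzmb (6.75% of all promoters) and the CRE letters in Gzmc (1.55%). Nkg7 held the STAT motif TTCNNNGAA (7.02%) and the T-box motif AGGTGTGA (1.12%). No member held the E-box CACGTG (6.02%), and Fasl, Gzmk and Serpinb9 held none of the 6 motifs. The windows of Gzmk (chr13:113180966-113181215) and Serpinb9 (chr13:33004291-33004540) lie inside the coordinates given here for those genes. For both genes the absence of motifs holds for that window only. None of the matches overlapped another. A match is a run of letters and not a measured binding site.

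**Figure D1:**
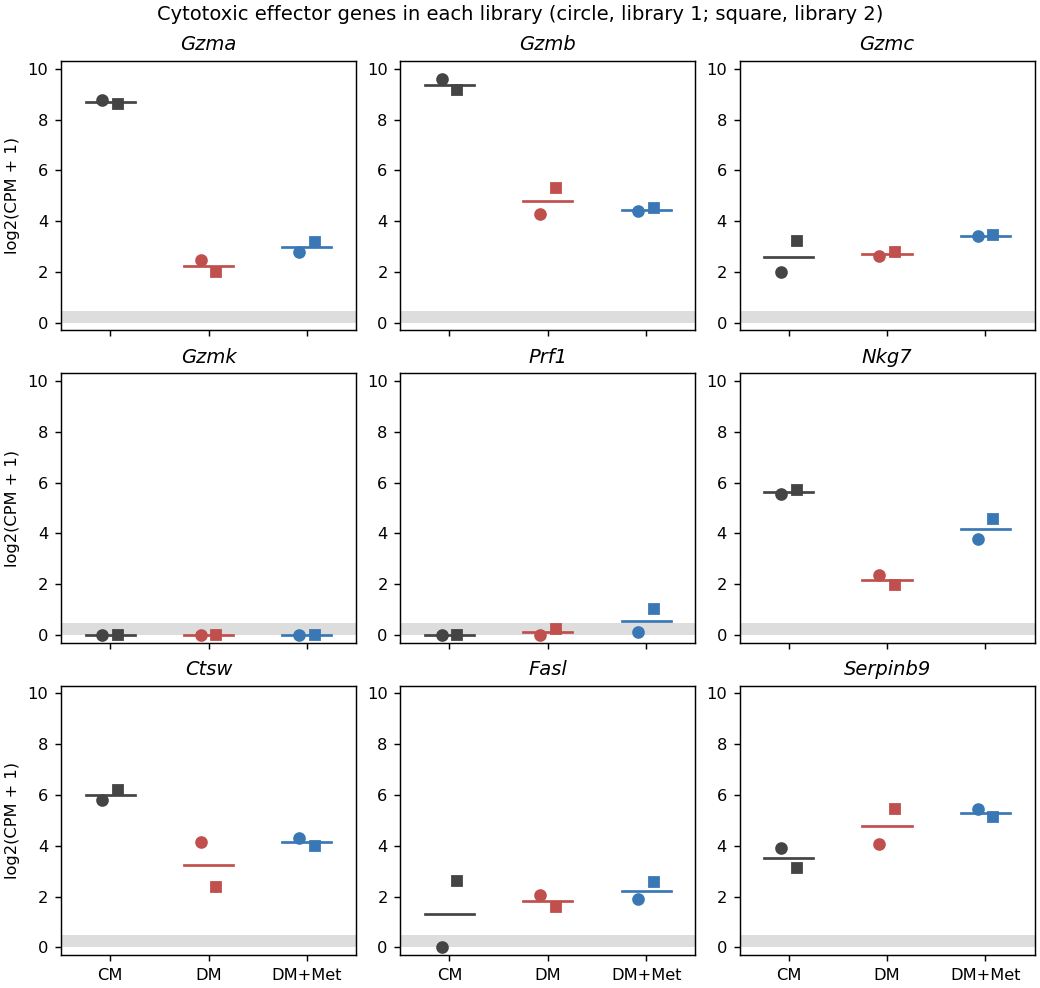
Level of each of the 9 genes as log2(CPM + 1) in each library, by medium, with library 1 as a circle, library 2 as a square and a bar at the mean of the 2 libraries. The grey band ends at 0.47, the highest value among the libraries that 3 reads give. Gzma, Gzmb, Nkg7 and Ctsw were highest in both CM libraries, Serpinb9 was lowest there, and Gzmk was at 0 throughout.

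In DM, 4 of the 7 tested members fell and none rose, against 9.07% of all tested genes called lower and 7.80% called higher (16.9% in either direction). The 4 were Gzma, Gzmb, Nkg7 and Ctsw. The median log2 fold change of the 7 was -2.73, against 0.07 over all tested genes. Gzma fell by 6.46 log2 units (SE 0.328, adjusted p 1.44e-05) and Gzmb by 4.58 (SE 0.318, adjusted p 5.39e-05). Both calls and their direction held under all 18 alternative settings, with Gzma between -6.82 and -5.58 and Gzmb between -5.10 and -4.06.

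Nkg7, a granule membrane protein needed for efficient granule release, stood at 5.54 and 5.73 for CM, 2.35 and 1.97 for DM and 3.77 and 4.56 for DM+Met. The media did not overlap, and the DM+Met libraries lay between CM and DM. Nkg7 fell in DM by 3.48 log2 units (SE 0.417, adjusted p 9.21e-04), and the call held under all 18 settings. Its CPM was 45.7 and 52.0 for CM, 4.08 and 2.91 for DM and 12.6 and 22.6 for DM+Met. Nkg7 lies on chromosome 7 (chr7:43437073-43438249, plus strand).

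Ctsw encodes cathepsin W, a cysteine protease found mainly in cytotoxic lymphocytes, and lies on chromosome 19 (chr19:5465043-5468507, minus strand). It stood at 5.79 and 6.19 for CM, 4.13 and 2.39 for DM and 4.32 and 3.98 for DM+Met. Both CM libraries were above the other 4, and the DM libraries were the most spread. Ctsw fell in DM by 2.73 log2 units (SE 0.514, adjusted p 0.00719). The call was lost without CM library 1 (-2.93, adjusted p 0.0727) or CM library 2 (-2.53, adjusted p 0.0847), while leaving out a DM library gave -3.60 or -1.86 and kept it.

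Serpinb9, on chromosome 13 (chr13:33003250-33017957, plus strand), took the opposite order. It stood at 3.90 and 3.14 for CM, 4.06 and 5.46 for DM and 5.44 and 5.12 for DM+Met, so both CM libraries lay below the rest. DM differed from CM by 1.24 (SE 0.476, adjusted p 0.102), which did not pass the test, with a 95% interval of 0.18 to 2.30. Without DM library 1 this value was 1.94 and without DM library 2 it was 0.54. Between DM+Met and CM it was 1.76 and was called (SE 0.476, adjusted p 0.0345). That call was lost when any 1 of the 6 libraries was left out, with values between 1.38 and 2.14 and adjusted p between 0.0513 and 0.297.

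The balance between granzyme B and its inhibitor differed widely between libraries. Reads of a 3′-end kit come from transcript ends and were not divided by transcript length. On that scale, Gzmb CPM was 54.9 and 73.3 times that of Serpinb9 for CM, 1.16 and 0.902 times for DM and 0.467 and 0.654 times for DM+Met. Gzmb exceeded Serpinb9 in both CM libraries, the pair was near equal in DM, and Serpinb9 exceeded Gzmb in both DM+Met libraries. Between CM and DM, mean Gzmb CPM differed 23.5-fold and mean Serpinb9 CPM 2.70-fold in the other direction, the latter in a difference that did not pass the test.

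**Figure D2:**
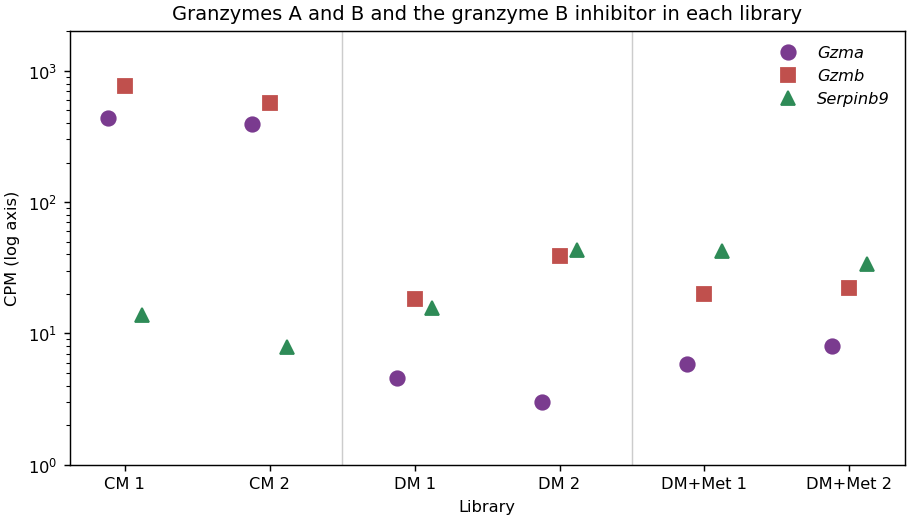
CPM of Gzma, Gzmb and Serpinb9 in each of the 6 libraries on a log axis, with points set slightly apart so that they do not cover each other. In CM both granzymes lie far above Serpinb9 (Gzmb 763 and 573 CPM against 13.9 and 7.82), and in DM+Met Serpinb9 (42.5 and 33.8) lies above Gzmb (19.9 and 22.1).

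Gzmc, a granzyme of strongly activated lymphocytes, was low in every medium and was not called in any comparison. It stood at 1.99 and 3.20 for CM, 2.61 and 2.79 for DM and 3.41 and 3.45 for DM+Met, from 26 to 118 reads per library. The DM values lay between those of CM, and both DM+Met values lay above the other 4. The log2 fold change was 0.11 in DM against CM (SE 0.561, adjusted p 0.920, 95% interval -1.15 to 1.36). It was 0.84 in DM+Met against CM (adjusted p 0.356, 95% interval -0.42 to 2.09). Without CM library 1, the first of these became -0.50 (adjusted p 0.567).

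Fasl, on chromosome 1 (chr1:161780689-161788495, minus strand), had no read in CM library 1 and stood at 2.61 in CM library 2, 2.06 and 1.60 for DM and 1.91 and 2.55 for DM+Met. The CM libraries enclosed all other values. DM differed from CM by 0.52 (SE 0.82, adjusted p 0.703, 95% interval -1.31 to 2.35), and without CM library 1 it was -0.79 (adjusted p 0.476). Between DM+Met and CM it was 0.93 (adjusted p 0.492), and without CM library 1 it was -0.38 (adjusted p 0.756). CM library 1 had 0 reads of Fasl and CM library 2 had 40, while the other 4 libraries had 23 to 58.

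Perforin (Prf1, chr10:61297833-61304680, plus strand) had 0 reads in both CM libraries, 0 and 2 for DM and 1 and 12 for DM+Met. Apart from the 12 reads in DM+Met library 2, all values lay at or under the 3 reads that a count of 0 still allows, which is 0.251 to 0.384 CPM depending on the library and covers counting error only. Prf1 was not tested. Granzymes A and B were thus abundant in CM while Prf1 was listed at 0 there. Gzmk, a tryptase related to Gzma, was listed at 0 in all libraries. Vamp7, a vesicle fusion gene of most cells, was also listed at 0 in all 6, so a 0 throughout the files is given only as the listed value.

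Addition of methionine to DM gave no call among the 7 tested members, against 0.0548% of all tested genes called (7 of 12770). At an unadjusted p below 0.05 there were 2 members, against 1238 of all genes, and the same test on recovered reads with precision weights (limma-voom) also called 0. Nkg7 had the largest difference of the members, 2.01 on the log2 scale (95% interval 1.08 to 2.94, adjusted p 0.190), with both DM+Met libraries above both DM libraries. With scaling to library totals in place of TMM it was 2.33 (adjusted p 0.0486), a setting under which the median over all genes was 0.34 in place of 0.01. Gzma was 0.74 higher in DM+Met (95% interval 0.01 to 1.47, adjusted p 0.513), again without overlap. Gzmb gave -0.33 (95% interval -1.04 to 0.38, adjusted p 0.804), with the DM libraries on either side of the DM+Met libraries, and its sign turned under library totals (0.02) and without DM library 2 (0.19). Ctsw (0.89, adjusted p 0.631), Gzmc (0.73, adjusted p 0.744), Serpinb9 (0.52, adjusted p 0.791) and Fasl (0.40, adjusted p 0.929) did not pass either. Ctsw gave 1.76 without DM library 1 and 0.02 without DM library 2. Serpinb9 gave 1.22 without DM library 2 and -0.18 without DM library 1.

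DM+Met against CM called 5 of the 7, with 4 lower and 1 higher, against 8.36% of all tested genes lower and 6.92% higher (15.3% in either direction). This comparison uses the same CM libraries as DM against CM, so the pair of results is not independent. Gzma fell by 5.72 log2 units (SE 0.328, adjusted p 1.74e-05) and Gzmb by 4.92 (SE 0.318, adjusted p 3.00e-05), and both held under all 18 settings. The other calls were less stable. Nkg7 fell by 1.47 (adjusted p 0.0412), a call lost without any 1 of the 6 libraries (-1.87 to -1.08, adjusted p 0.0728 to 0.343) and with the replicate number as a block (adjusted p 0.0507). Ctsw fell by 1.84 (adjusted p 0.0390), a call lost without either CM or either DM+Met library (-2.04 to -1.64, adjusted p 0.155 to 0.305). Serpinb9, described above, was the member that rose.

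**Figure D3:**
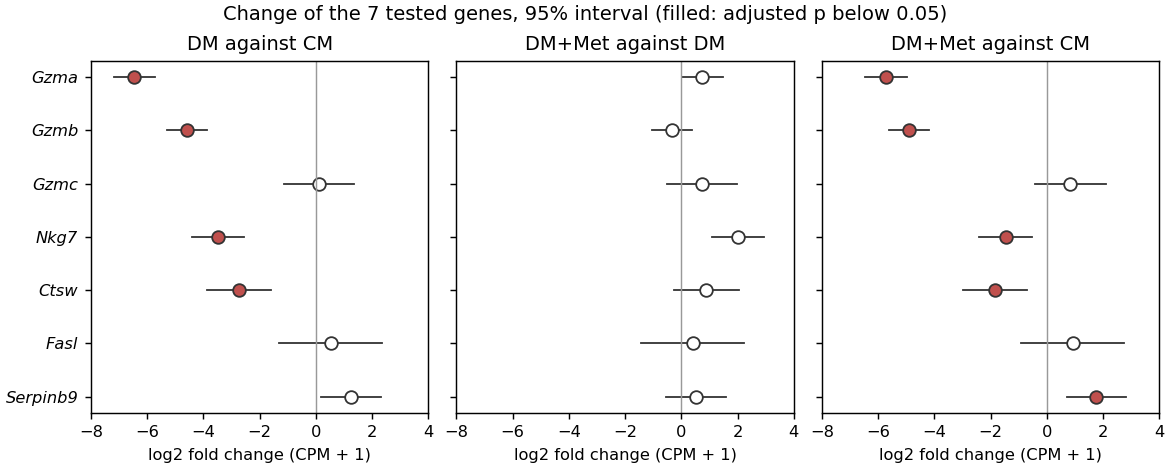
Log2 fold change on the log2(CPM + 1) scale of the 7 tested genes in the 3 comparisons, with lines for the 95% interval and filled points for an adjusted p below 0.05. Gzma and Gzmb lie at -6.46 and -4.58 in DM against CM and at -5.72 and -4.92 in DM+Met against CM, and no point is filled in DM+Met against DM.

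Summed over the 9 genes, CM libraries held 1317 and 1112 CPM, DM 67.4 and 99.8, and DM+Met 112.2 and 117.1. Gzma and Gzmb made up 91.1% and 86.9% of that sum for CM, 33.9% and 41.7% for DM and 22.9% and 25.8% for DM+Met. The makeup of the set differed as well as its total. The mean log2 levels of Gzmc, Fasl and Serpinb9 in DM and DM+Met lay above those in CM, though only Serpinb9 in DM+Met was called. In mean CPM, Gzmc was 5.58 in CM and 5.51 in DM, and Fasl 2.56 in CM and 2.60 in DM. The signs of Gzmc and Fasl in DM against CM turned without CM library 1. Ordered by their profile over the 6 libraries, with each gene centred on its own mean, the closest members were Fasl and Gzmc (root mean square difference 0.51 on the log2 scale), Nkg7 and Ctsw (0.69), Gzmc and Serpinb9 (0.84) and Gzma and Gzmb (0.89). Gzma and Serpinb9 were furthest apart (3.63). The measure is not scaled to the size of a gene's change, so genes that change little can lie close. Fasl and Gzmc also rest on few reads, with 0 and 26 in CM library 1.

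By the same measure over 6 libraries, the genes outside the set closest to Gzmb were Zbtb32 (0.20), Mt2 (0.37), Scd2 (0.50), Ube2c (0.51) and Il24 (0.53). Zbtb32, a zinc finger repressor of activated lymphocytes, stood at 5.73 and 5.57 in CM and at 0.14 to 1.51 in the other libraries. The genes closest to Gzma were Hspa1b (0.79), Il24 (0.83), Zbtb32 (0.88), Mt2 (0.89) and Hspa1a (0.95). Mt2 encodes a metallothionein that binds zinc, Scd2 a fatty acid desaturase, Ube2c a ubiquitin-conjugating enzyme of mitosis, Il24 a cytokine, and Hspa1a and Hspa1b near-identical heat shock proteins whose reads may be shared. Each of these genes was higher in both CM libraries than in the other 4, which follows from their choice by profile.

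The other genes of the pathway were taken in 5 lists of 69 genes. Of these, 59 were tested. In DM against CM 18 were called (30.5%, against 16.9% of all tested genes), and in DM+Met against CM 15 (25.4%, against 15.3%). Between DM+Met and DM 0 were called by limma and 1 by limma-voom. Regulators made up 11 of the 18 and 9 of the 15, or 55.0% and 45.0% of their list. In DM against CM the shares called were 0% for the other granzymes, 16.7% for granule genes, 16.7% for serpins and 23.1% for death receptor genes. Of the other granzymes, 2 of 6 were tested (Gzmd and Gzmm) and 0 were called in any comparison by either method, with 0, 0 and 1 at an unadjusted p below 0.05 in DM against CM, DM+Met against DM and DM+Met against CM. Of the 19 genes for granule packing, activation and release, 18 were tested, 3 were called in DM and 15 were not, a share of 16.7% and so near the 16.9% over all tested genes. Srgn, the serglycin core on which granzymes are packed, fell by 1.01 on the log2 scale (adjusted p 0.00469), from 10.43 and 10.00 in CM to 9.12 and 9.29 in DM. The call of Srgn was lost without CM library 1 (-0.80) or either DM library (-0.93 and -1.10). Calr, the granule chaperone calreticulin, fell by 0.59 (adjusted p 0.0266) and Rab27a, which docks granules at the membrane, rose by 0.89 (adjusted p 0.0490). Rab27a lost its call without any 1 library (adjusted p 0.0760 to 0.159) and Calr without any but DM library 1 (adjusted p 0.0822 to 0.153), and the list's median change was -0.19 against 0.07 over all genes. Srgn was also called in DM+Met against CM (-0.90, adjusted p 0.00761) and lost the call without every library but CM library 2. Ctsc, which activates granzymes by trimming them, stood between 4.51 and 5.11 in all libraries (DM against CM -0.05, adjusted p 0.926).

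Of 11 other intracellular serpins, 6 were tested and Serpinb6b alone was called. The share was 16.7% in each comparison against CM, near the 16.9% (DM) and 15.3% (DM+Met) over all tested genes. Serpinb6b was lower in DM by 2.03 (SE 0.228, adjusted p 6.93e-04) and lower in DM+Met than in CM by 1.68 (adjusted p 0.00129). Serpinb6b stood at 6.98 and 6.84 for CM, 5.01 and 4.74 for DM and 5.19 and 5.27 for DM+Met. Its relative Serpinb9 was in the opposite order, but Serpinb9 was not called in DM (adjusted p 0.102). The call of Serpinb9 in DM+Met against CM was lost when any 1 library was left out. Without DM+Met library 1 the call of Serpinb6b in DM+Met against CM was lost (-1.64). The median change of the list against CM was -0.35 in DM and 0.01 with methionine.

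Of 13 death receptors, ligands and signalling genes, 3 rose in DM and 10 were not called, where 7.80% of all tested genes rose. Tnf, the tumour necrosis factor gene, rose by 2.42 (adjusted p 7.46e-04) and its relative Lta, lymphotoxin alpha, by 2.10 (adjusted p 0.00138). Tnf stood at 3.46 and 3.24 for CM, 5.95 and 5.60 for DM and 6.03 and 5.91 for DM+Met, without overlap between CM and the other media. Fas, the receptor of Fas ligand, rose by 1.52 (adjusted p 0.00224). The same 3 genes were called in DM+Met against CM, each in the direction it had in DM (Tnf 2.62, Lta 3.14, Fas 1.28), and Ltb, lymphotoxin beta, was the fourth (1.33, adjusted p 0.0102), where 6.92% of all tested genes were called higher. The list's medians were 0.37 and 0.86, against 0.07 and 0.06 over all genes. Tnf held under all 18 settings in both comparisons, Lta lost its call in DM without either DM library (2.04 and 2.17), Fas lost its call in DM+Met without either DM+Met library (1.21 and 1.35), and Ltb lost its call without either CM or either DM+Met library (1.16 to 1.51).

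Of 20 regulators known for cytotoxic genes, 11 were called in DM, 5 higher and 6 lower, where 7.80% of all tested genes were called higher and 9.07% lower. Tbx21, which encodes T-bet, an activator of cytotoxic and interferon genes, stood at 6.35 and 6.07 for CM, 3.90 and 1.97 for DM and 3.25 and 2.33 for DM+Met. Both CM libraries lay above the other 4. Tbx21 fell by 3.27 in DM (adjusted p 0.00691) and by 3.42 in DM+Met against CM (adjusted p 0.00528), with the first call lost without either CM library or DM library 2 (-3.42 to -2.30) and the second without any CM or DM+Met library (-3.88 to -2.95). Runx3 and Runx1, which bind the same motif, moved in opposite directions. Runx3 fell by 1.40 in DM (SE 0.145, adjusted p 4.57e-04), from 9.02 and 9.21 in CM to 7.71 and 7.72 in DM. Runx1 rose by 1.57 (SE 0.219, adjusted p 0.00192), from 4.67 and 4.73 to 6.25 and 6.30. Runx3 was called under all 18 settings in both comparisons against CM, and Runx1 under all 18 in DM, while in DM+Met against CM (1.43) it lost the call without either DM+Met library.

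Tcf7, the gene of the memory and naive cell factor TCF-1, rose by 1.60 in DM (adjusted p 0.0137), and Batf, an AP-1 family factor of effector cells, fell by 1.02 (adjusted p 0.0147). Tcf7 kept its call when DM library 1 was left out and lost it without any other 1 library (1.10 to 1.63), and Batf lost it without any 1 library (-1.17 to -0.87). In DM+Met against CM, 9 regulators were called, 3 higher and 6 lower, where the shares over all tested genes were 6.92% and 8.36%. Among these, Prdm1, the gene of the effector repressor Blimp-1, fell by 1.76 (adjusted p 0.0147) and Bhlhe40, a stress-response repressor, by 0.97 (adjusted p 0.00578). Prdm1 was called in that comparison without DM+Met library 1 and lost without each of the others, with -1.16 without DM+Met library 2, and Bhlhe40 lost its call without CM library 1 or either DM+Met library (-1.05 to -0.82). Il2ra, the alpha chain of the interleukin-2 receptor and a sign of activation, stood between 9.86 and 10.41 in all libraries (DM against CM 0.10, adjusted p 0.645). Other regulators of the list did differ. Against CM, Il2rb was called lower in DM (-0.59, adjusted p 0.0161) and in DM+Met (-0.61, adjusted p 0.0135). Stat5a was also called lower in both (-0.88, adjusted p 0.0174, and -0.73, adjusted p 0.0373). Irf4 was called higher in both (0.83, adjusted p 0.0135, and 0.62, adjusted p 0.0430), and Stat5b in neither. The list's median was 0.13 in DM and 0.19 in DM+Met, so the list as such did not lie lower.

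**Figure D4:**
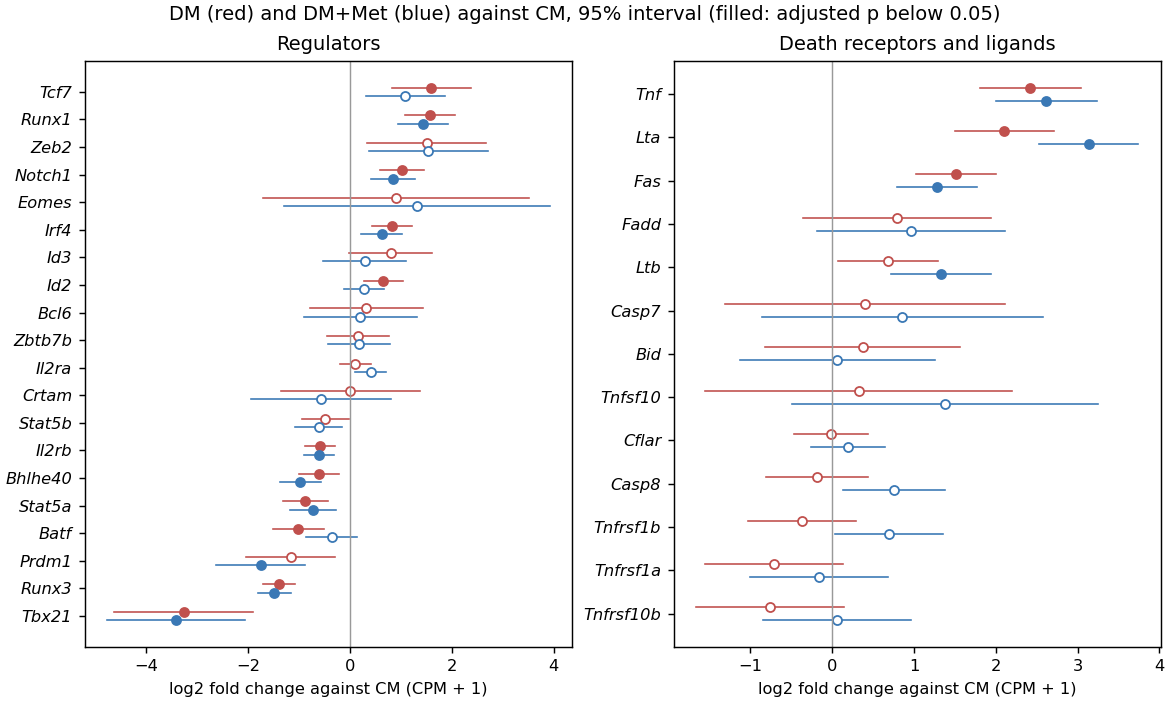
Log2 fold change against CM of the 20 regulators and the 13 death receptor genes in DM (red) and DM+Met (blue), with lines for the 95% interval and filled points for an adjusted p below 0.05. Tbx21 (-3.27 and -3.42) and Runx3 (-1.40 and -1.49) lie lowest among the regulators in DM, and Tnf and Lta lie highest among the death receptor genes in both media.

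Markers of the labelled cell type were present in all libraries. Cd4 stood between 7.35 and 8.13, and the summed CPM of 7 CD4 T cell markers was 1179 to 1466. Of these, Cd3d, Cd3e, Cd3g, Cd5 and Cd28 are genes of T cells in general. The sum thus does not separate CD4 from CD8 T cells. Mean CPM of Cd4 was 212 for CM, 171 for DM and 257 for DM+Met. Mean CPM of Cd8a was 37.6 for CM, 11.2 for DM and 11.2 for DM+Met. Of the 7, 3 were called in DM, in both directions (42.9%, against 16.9% of all tested genes). In DM+Met against CM 1 was called (14.3%, against 15.3%). Cd5, an inhibitor of receptor signalling, was higher in DM by 1.42 (adjusted p 0.00591) and again in DM+Met against CM (1.13, adjusted p 0.0162). In DM, Cd3g was higher by 0.72 (adjusted p 0.0349) and Cd28 was lower (-0.53, adjusted p 0.0490). Cd3g and Cd28 lost their call without any 1 library (0.55 to 0.90 and -0.56 to -0.50), and Cd5 lost its call in DM without either CM library (1.39 and 1.45) and in DM+Met without either CM or either DM+Met library (1.06 to 1.19). Markers of CD8 T cells, which express granzymes strongly, were also read and moved with Gzma and Gzmb. The sum of Cd8a and Cd8b1 was 66.4 and 74.2 CPM for CM, 34.2 and 24.4 for DM and 27.8 and 23.4 for DM+Met. The CM mean of this sum was 2.40 times that of DM and 2.74 times that of DM+Met, against 33.6 and 38.8 times for the sum of Gzma and Gzmb. Against CM, Cd8a was called lower in DM (-1.72, adjusted p 0.0323) and lower with methionine (-1.76, adjusted p 0.0317), and each call was lost without any 1 library (-2.12 to -1.31 and -2.29 to -1.23). Cd8b1 was not called (-0.82, adjusted p 0.225, and -1.26, adjusted p 0.0806). The sort for CD4 T cells was meant to remove CD8 T cells. For its culture experiments the study gives the purity of sorted T cells only as a lower limit, short of full purity. The part of any remaining CD8 T cells in the granzyme result was not tested.

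The summed NK and innate lymphoid markers were not highest in CM. Their CPM over 9 genes was 41.1 and 36.6 for CM, 39.1 and 30.9 for DM and 52.5 and 68.6 for DM+Met. Single members differed. Tyrobp, an adaptor of NK and myeloid receptors, stood at 3.82 and 3.77 for CM, 0 and 2.71 for DM and 3.39 and 4.02 for DM+Met. This puts DM lowest (DM against CM -2.44, adjusted p 0.0620). Fcer1g, likewise shared with myeloid cells, and Tyrobp made up much of the sum. Mean CPM of the sum was 38.9 for CM, 35.0 for DM and 60.6 for DM+Met. Fcer1g gave 15.3, 12.9 and 27.0 of these, and Tyrobp 12.9, 2.78 and 12.3. The sum thus does not show the order of the NK receptor genes alone. The NK-defining gene Ncr1 stood at 0 to 0.88, and Klrb1c, at 0 in both CM libraries, stood at 1.45 to 2.25 elsewhere and was called in DM+Met against CM (2.10, adjusted p 0.0294), a call lost without either CM or either DM+Met library. Summed B cell markers were 61.6 to 102.7 CPM, with Pax5 listed at 0. Myeloid markers were 17.0 and 21.2 CPM in CM against 32.6 to 48.6 in the other media, with Lyz2 called higher in DM (2.13, adjusted p 0.0355), a call kept without CM library 2 and lost without any other 1 library (1.57 to 2.16). Mast cell and basophil markers were 1.63 to 14.7 CPM, with Mcpt8 and Fcer1a at 0. Most of this was Kit (1.63 to 14.6 CPM), a gene not specific to these cells. Cpa3 and Ms4a2 had at most 7 reads in a library.

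**Figure D5:**
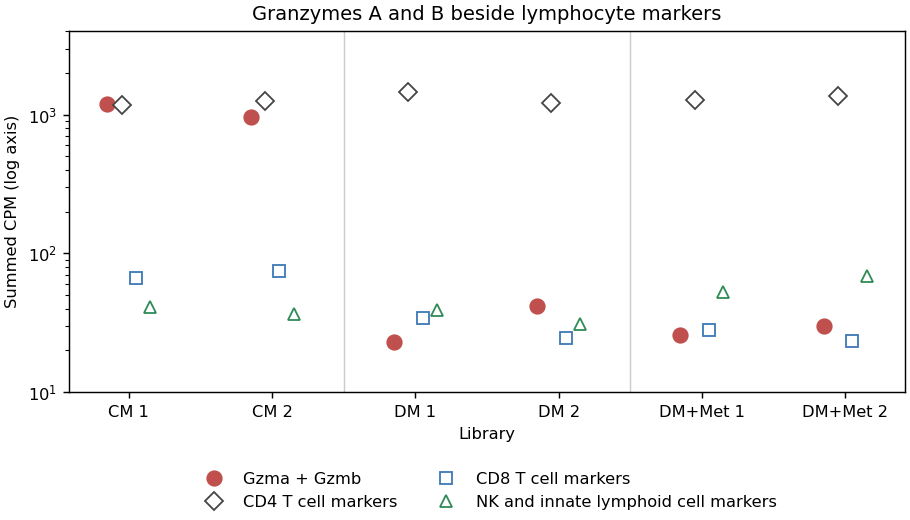
Summed CPM of Gzma and Gzmb (filled circles) beside the summed CPM of markers of CD4 T cells, CD8 T cells and NK or innate lymphoid cells (open symbols) in each library, on a log axis. The CD4 T cell markers include genes of T cells in general (Cd3d, Cd3e, Cd3g, Cd5 and Cd28). The granzyme sum is 1200 and 967 CPM in CM and 22.8 to 41.7 elsewhere, and the CD8 marker sum is 66.4 and 74.2 in CM and 23.4 to 34.2 elsewhere.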

How the data were processed

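RNA of 6 libraries was measured, 2 for each of CM, DM and DM+Met. The authors deposited log2 values of TMM-scaled CPM plus 1, to 3 decimals; their processing notes name Bowtie2, bedtools and mm10, and the annotation and use of strand are not given in the sources used here. Base and offset of the log were read off the values, whose equal steps gave whole reads for at least 99.776% of values up to 300 reads (within 0.1). Rows were tested when 2 libraries reached 0.946 CPM (10 reads at median depth) and 15 reads were reached in total. All 3 media entered 1 limma 3.58.1 fit (R 4.3.3, intensity trend, 6.87 prior degrees of freedom, no covariate), two-sided, Benjamini-Hochberg over 12770 rows. Every adjusted p is from limma. Fold changes on the log2(CPM + 1) scale understate low genes. The 9 members and all lists were chosen with earlier results of these data known. Named genes are the members, called genes of 5 pathway lists (at most 5 per list and comparison, by size of change), genes needed to account for short lists, the markers, and the 5 genes nearest to Gzma and Gzmb; genes beyond that were chosen after their values were seen. The fits were tested on simulated data. Coordinates are GENCODE M21, promoters RefSeq, both GRCm38. Over the last 500 bases of annotated transcripts, the 9 members shared no run of 50 bases with another gene. The closing section gives 18 alternatives. Before counting, 1 gene was taken out of the pathway lists and is not reported here.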

Additional observations from a re-analysis of the deposited data

How the results depend on the processing

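Of 18 alternatives, the count of members called in DM against CM stayed within 1.5 times of 4, with 3 to 4 when 1 library was left out. In DM+Met against DM it was 0 except for 1 (Nkg7) under library totals. In DM+Met against CM it was 5, and 3 under library totals, 3 under library totals without Rn45s, 3 with the 2 compared media alone, 2 without a filter, 2 with a pseudocount of 0.1, 2 without the intensity trend, and 2 to 3 when 1 library was left out. Other pathway genes called in DM against CM numbered 18, with 7 without the intensity trend, 9 with the 2 media alone and 6 to 9 when 1 library was left out. Between DM+Met and DM limma-voom called 1, and in DM+Met against CM they numbered 15, with 7 without the trend and 4 to 15 when 1 library was left out.

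Signs turned for Gzmb in DM+Met against DM under library totals (0.017), with -0.85 to 0.19 when 1 library was left out. Leaving out 1 library gave Serpinb9 -0.18 to 1.22 in that comparison and 0.54 to 1.94 in DM against CM, Gzmc -0.50 to 0.71 and Fasl -0.79 to 1.83 in DM against CM, and Fasl -0.38 to 2.23 in DM+Met against CM. Filters of 10 reads in every library or a mean log2 of 2 left no value for Fasl. The causes were not tested.

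Over all genes, calls numbered 2154 in DM against CM (795 with 2 media, 1329 without the trend, 541 to 1061 when 1 library was left out), 7 in DM+Met against DM (0 to 55) and 1952 in DM+Met against CM (944 without the trend, 1265 without a filter, 268 to 1622 when 1 library was left out). With library totals the median over all genes was 0.34 in DM+Met against DM and 0.41 in DM+Met against CM, and the share of calls that were higher to 92.7% and 76.3%. Same-numbered libraries did not deviate together (correlations of -0.03 to 0.005). With the number as a replicate block, 4 members were called in DM against CM, 0 in DM+Met against DM and 4 in DM+Met against CM, where Nkg7 was lost. With 2 libraries per medium, leaving 1 out assumes that the lone library varies like the others, and Prf1, Fasl and Gzmc rest on few reads.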

Other observations

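The granzyme cluster genes beside Gzmb and Gzmc had few reads, and most of these were in 1 library of a medium. Gzme stood at log2 1.76 in CM library 1 and 0.17 in CM library 2 and at 0 in the other libraries. Gzmd stood at 1.24 and 0.33 for CM, 1.65 and 0 for DM and 0 and 0.32 for DM+Met. Gzmf stood at 0.85 and 0 for CM, 1.70 and 0 for DM and 0.12 for both DM+Met libraries, and Gzmg at 1.17 and 0 for CM, 0.14 and 0 for DM and 0 and 0.12 for DM+Met. Gzmn was read in CM library 1 alone, at 0.16. These 5 genes shared 7.10% to 20.6% of the 50-base runs in their last 500 bases with another gene, mostly with each other, so reads may be split among them. Gzmm, on another chromosome, stood at 0 in both CM libraries, 0 and 1.16 for DM and 1.94 and 1.38 for DM+Met, and was 1.66 higher in DM+Met than in CM (adjusted p 0.0938 by limma).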
